A study of Mus musculus with 12 samples.

Results

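Genes of activin, bone morphogenetic protein (BMP) and transforming growth factor-beta (TGF-beta) signaling were followed through 13 probe sets for 10 genes, out of 45101 probe sets on the array. They comprise the ligand genes Inhba, Inhbb, Bmp4 and Bmp6, the receptor gene Tgfbr2, the target genes Id1, Id2 and Id3, and the inhibitory Smad genes Smad6 and Smad7. The members were chosen by probe set number and gene name, with the tumor and lung levels on these same arrays already known, so that their levels and differences are a description and no test of the list is given. The names came with that list and were not checked against an annotation of the array. Tgfbr2, Id2 and Smad7 are each read by a pair of probe sets, and such a probe set is named by its gene and its identifier. The other members are Inhba 1422053_AT, Inhbb 1426858_AT, Bmp4 1422912_AT, Bmp6 1450759_AT, Id1 1425895_A_AT, Id3 1416630_AT and Smad6 1422486_A_AT.

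The arrays compared 4 lungs of non-transgenic FVB mice, 4 histologically normal lung samples from FVB mice carrying a transgene, and 4 lung adenocarcinomas from such mice, the transgenic tissue coming from 4 animals by the design notes. FVB is an inbred strain, and the transgene is wild-type human cyclin E, a driver of entry into the DNA synthesis phase of the cell cycle, under the promoter of human surfactant protein C, which is active in alveolar type II cells. All 3 groups were male and 7 to 11 months old, no group received a treatment, and each array held 1 sample of total RNA from a piece of tissue. Neighbouring tissue codes of the tumor and the adjacent normal lung with the same number imply, without stating it, that both came from 1 mouse, whereas the methods call the 12 samples independent. In RNA from whole tissue, fewer cells of a type and less RNA per cell cannot be told apart. The markers of lung cell types could not be named among the probe sets used here, so that the labelled tissue was not checked against them.

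Activins, BMPs and TGF-betas are secreted dimers of one protein superfamily. They bind paired type I and type II receptors, which phosphorylate Smad proteins that enter the nucleus with Smad4. Activin and TGF-beta receptors act mainly through Smad2 and Smad3, and BMP receptors through Smad1, Smad5 and Smad9. The Id genes are classical BMP targets and encode helix-loop-helix proteins that lack a DNA-binding region and hold other transcription factors inactive, whereas Smad6 and Smad7 are induced by the pathway and dampen it. BMP signaling shapes the branching lung in the embryo, and TGF-beta signaling in the adult lung restrains epithelial growth and directs matrix deposition.

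The promoters of the ligand genes with the largest differences in each direction, Inhbb and Bmp6, and of the Id genes that differed in opposite directions, Id2 and Id3, are shown so that their sequence can be read beside their levels. Each is the 250 bases before a transcription start of RefSeq on mouse genome build GRCm38.p6, written 5′ to 3′ along the strand of the gene. Capitals mark GTCT, the core that Smad proteins read, or its reverse complement AGAC, and GGCGCC, a GC-rich element described for Smad1 and Smad5.
Inhbb (chr1:119422249-119422498, minus strand): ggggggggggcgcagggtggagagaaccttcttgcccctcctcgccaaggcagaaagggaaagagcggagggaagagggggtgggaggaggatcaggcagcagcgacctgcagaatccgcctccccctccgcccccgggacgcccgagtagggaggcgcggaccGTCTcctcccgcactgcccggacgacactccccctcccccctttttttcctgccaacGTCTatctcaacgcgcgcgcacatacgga
Bmp6 (chr13:38345466-38345715, plus strand): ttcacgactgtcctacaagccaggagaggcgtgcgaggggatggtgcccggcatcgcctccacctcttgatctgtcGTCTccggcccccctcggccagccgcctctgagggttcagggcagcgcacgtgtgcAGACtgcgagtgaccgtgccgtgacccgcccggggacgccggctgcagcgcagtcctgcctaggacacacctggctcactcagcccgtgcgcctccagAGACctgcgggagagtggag
Id2 (chr12:25096093-25096342, minus strand): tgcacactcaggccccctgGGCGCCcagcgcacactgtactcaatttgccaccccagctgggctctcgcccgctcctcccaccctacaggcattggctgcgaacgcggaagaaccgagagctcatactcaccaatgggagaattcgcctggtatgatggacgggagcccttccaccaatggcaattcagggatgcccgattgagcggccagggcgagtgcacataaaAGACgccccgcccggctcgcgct
Id3 (chr4:136143572-136143821, plus strand): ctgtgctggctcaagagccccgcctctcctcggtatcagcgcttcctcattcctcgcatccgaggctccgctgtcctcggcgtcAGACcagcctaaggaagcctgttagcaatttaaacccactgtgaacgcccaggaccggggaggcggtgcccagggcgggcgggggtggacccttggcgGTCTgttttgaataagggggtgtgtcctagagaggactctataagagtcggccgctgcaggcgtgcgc

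Windows of 250 bases before and 50 after a transcription start of RefSeq were scanned for 8 of the 10 genes. Id1 and Smad7 were not scanned. For Inhba and Smad6 the start used lies inside the gene as recorded. Inhba is recorded from chr13:16004256 on the plus strand, and its window begins at 16011601. Smad6 is recorded up to chr9:64022085 on the minus strand, and its bases before the start begin at 64022060. GTCT on either strand was present in all 8 windows, as in 88.0% of 32851 mouse promoters. Bmp6 held 4 copies, Id3 held 3, Inhbb held 2 and Id2 held 1, against a median of 2. GGCGCC was found in Id2 alone among the 8, beginning 231 bases before the start, and in 11.9% of all promoters. The palindrome GTCTAGAC, which holds GTCT and AGAC end to end, was found in Smad6 alone among the 8 and in 0.213% of all promoters. It begins 4 bases before the start used and runs across it, inside the gene as recorded. It is shown in capitals in 30 bases that begin 15 bases before that start.
Smad6 (chr9:64022045-64022074, minus strand): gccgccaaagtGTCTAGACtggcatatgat
Over these windows the 4 promoters shown first were rich in G and C, at 64.3% for Inhbb, 69.3% for Bmp6, 63.3% for Id2 and 60% for Id3, above the median of 52.7% over all promoters. A match is a stretch of letters and not evidence of binding.

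Levels are log2 signals, so that 1 unit is a factor of 2, and levels of different probe sets are not on a common scale. The median of the whole table was 4.18, and all 13 members passed the filter, which asked for a signal above that median in at least 4 arrays and kept 23538 probe sets. Differences, standard errors and 95% intervals come from 1 limma fit of the 3 groups over those 23538 probe sets. A probe set is said to be called at a Benjamini-Hochberg adjusted p under 0.05 in that fit. The arrays of tumor 2 and adjacent normal lung 3 stood apart from their groups. The mean Euclidean distance of tumor 2 to the 8 lungs was 112, whereas the other tumors lay 169.3 to 177.4 from them, and adjacent lung 3 lay 104.7 from its group, where the other adjacent lungs lay 66.2 to 69.8. On the Gapdh and beta-actin controls the 3′ probe sets exceeded the 5′ ones on every array, a gap that RNA degradation widens. The excess was 0.61 in tumor 2, 0.57 in adjacent lung 3 and 0.30 to 0.57 in the other 10 arrays. It did not set adjacent lung 3 apart, since adjacent lung 4 also had 0.57. Tumor 2 was close to tumor 3, at 0.56. What these differences contribute to the results was not tested. Differences of the tumors whose call or direction turned on either array are given with and without it.

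Tumors differed from normal lung in Inhbb, Bmp6, Id2 and Id3. Inhbb and both Id2 probe sets were higher in all 4 tumors than in all 8 lungs, as were 6.98% of all probe sets tested, and Bmp6 and Id3 were lower in all 4, as were 10.6%. The groups did not overlap in 6 members between tumors and adjacent lung (23.5% of all probe sets tested), the same 5 and Inhba, and in 6 between tumors and non-transgenic lung (28.5%), the same 5 and Smad6. These 5 of 13 members were called in tumor against adjacent normal lung, where 28.7% of all probe sets tested were, and the same 5 were called in tumor against non-transgenic lung, where 32.5% were. Since the list was drawn up with these levels known, nothing is read from these shares or from the medians that follow. The median absolute difference of the 13 members from adjacent lung was 0.62, beside 0.36 over all probe sets tested, while their median signed difference was -0.02, beside 0.07. The comparisons of tumor with each kind of lung share the tumor arrays. The plot of levels by array shows all values.

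**Figure D1:**
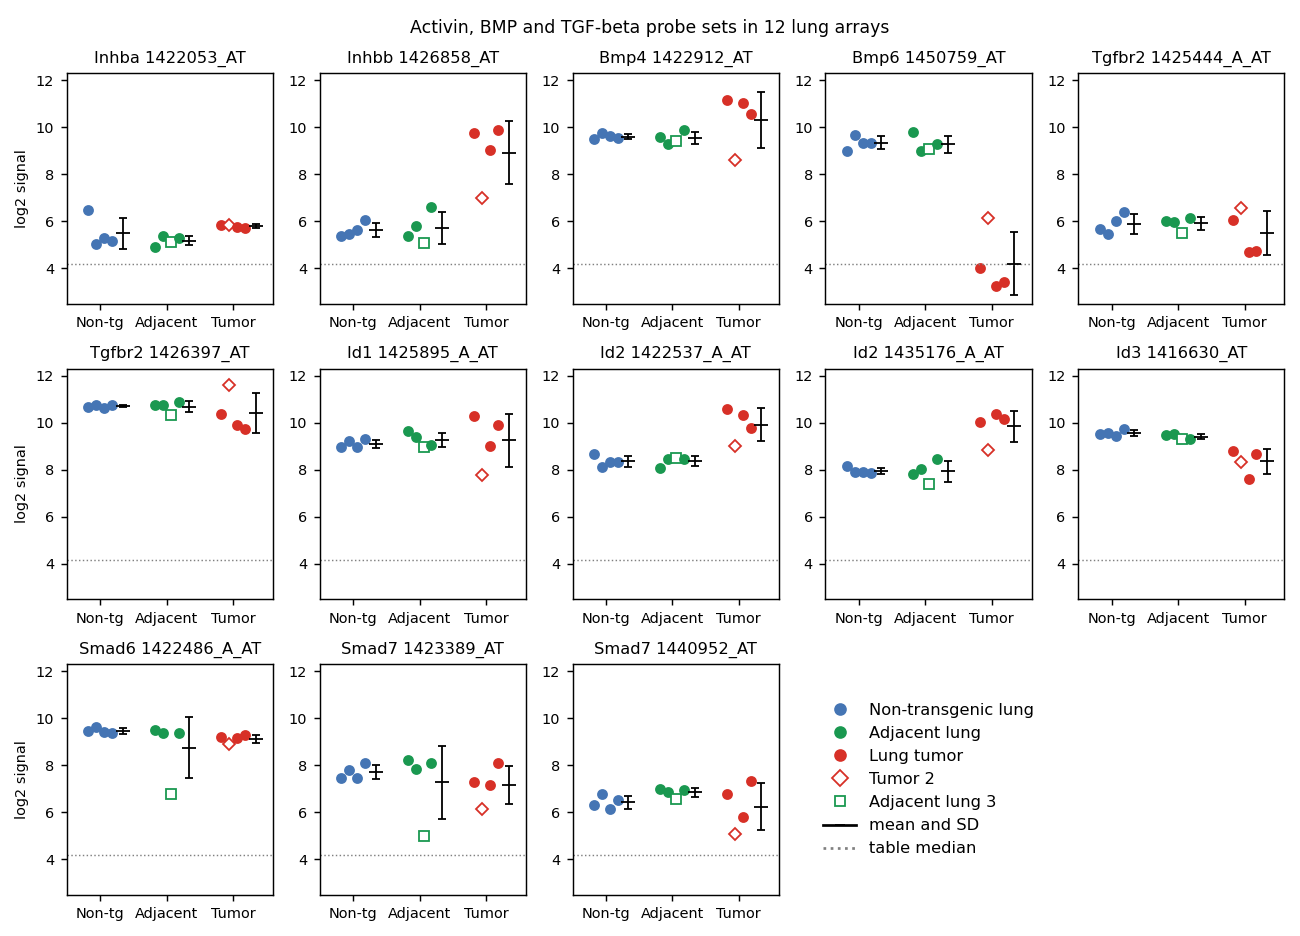
Log2 signal (vertical axes) of the 13 probe sets by group, namely non-transgenic lungs, adjacent lungs and tumors, 1 point per array, with the group mean and SD as bars, tumor 2 as an open diamond, adjacent lung 3 as an open square and the table median of 4.18 as a dotted line. Bmp6 was 8.98 to 9.80 in the 8 lungs and 3.24 to 6.13 in the tumors, and Inhbb was 5.09 to 6.62 in the lungs and 6.99 to 9.87 in the tumors.

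Among the ligands, Inhbb had the largest difference upward. It encodes the beta B subunit, a pair of which makes activin B. Its log2 signal was 9.77, 6.99, 9.04 and 9.87 in tumors 1 to 4, against 5.38, 5.81, 5.09 and 6.62 in adjacent lungs 1 to 4 and 5.37, 5.48, 5.64 and 6.07 in non-transgenic lungs 1 to 4. Every tumor lay above every lung, with tumor 2 only 0.38 above the highest lung and the other tumors well clear of it. Mean and SD over 4 arrays were 8.92 ± 1.34 for tumors, 5.72 ± 0.66 for adjacent lung and 5.64 ± 0.31 for non-transgenic lung. The difference from adjacent lung was 3.19 (standard error 0.55, 95% interval 2.0 to 4.38), or 9.16-fold, and that from non-transgenic lung was 3.28 (standard error 0.55, 95% interval 2.09 to 4.47). Only 13 of the 23538 probe sets tested had a larger increase over adjacent lung. Without tumor 2 the difference from adjacent lung was 3.84 (95% interval 3.11 to 4.56), or 14.3-fold.

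Inhba, which encodes the beta A subunit of activin A, differed far less. Its signal was 5.86, 5.86, 5.76 and 5.73 in the tumors, 4.93, 5.37, 5.12 and 5.31 in adjacent lungs and 6.47, 5.02, 5.30 and 5.16 in non-transgenic lungs. The tumors lay above every adjacent lung, and above non-transgenic lungs 2 to 4, while non-transgenic lung 1 was the highest of all 12 arrays. Tumors differed in Inhba by 0.62 (standard error 0.26, 95% interval 0.05 to 1.20) from adjacent lung and by 0.31 (95% interval -0.26 to 0.89) from non-transgenic lung, and neither was called. Inhba was called in both comparisons when non-transgenic lung 1 was left out, which took the difference from non-transgenic lung to 0.64, where 26.4% of all probe sets tested were called against adjacent and 26.8% against non-transgenic lung. It was also called against adjacent lung when only the 8 arrays compared were fitted, where 18.4% were. The SD of the 4 tumors, 0.07, was the smallest among tumors of any member.

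Bmp6, a BMP ligand known in the liver for its part in iron balance, had the largest difference of all members, and it was a decrease. Its signal was 4.02, 6.13, 3.24 and 3.44 in the tumors, 9.80, 8.98, 9.07 and 9.27 in adjacent lungs and 9.01, 9.68, 9.34 and 9.32 in non-transgenic lungs. All 8 lungs lay within 0.82 of each other, and all 4 tumors lay below them by 2.86 or more, with tumor 2 the nearest to lung. Mean and SD over 4 arrays were 4.21 ± 1.32 for tumors, 9.28 ± 0.37 for adjacent lung and 9.34 ± 0.27 for non-transgenic lung. The difference from adjacent lung was -5.07 (standard error 0.50, 95% interval -6.17 to -3.98), or 33.7-fold lower, and that from non-transgenic lung was -5.13 (standard error 0.50, 95% interval -6.23 to -4.03). Only 12 of the 23538 probe sets tested had a larger decrease from adjacent lung. Tumors 1, 3 and 4 lay below the table median of 4.18, where no detection call separates signal from background, and the size of the decrease is uncertain for that reason. It was -4.61 with values below that median raised to it, and -5.71 (95% interval -6.24 to -5.19) without tumor 2.

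Bmp4, a BMP ligand that acts in lung branching, was higher in 3 of the 4 tumors. Its signal was 11.15, 8.59, 11.04 and 10.55 in the tumors, 9.57, 9.31, 9.43 and 9.88 in adjacent lungs and 9.51, 9.75, 9.61 and 9.54 in non-transgenic lungs. Tumors 1, 3 and 4 lay above all 8 lungs, as in 21.7% of all probe sets tested, while tumor 2 lay below all of them. Against adjacent lung the difference was 0.78 (standard error 0.44, 95% interval -0.18 to 1.75) and was not called. Without tumor 2 it was 1.37 (95% interval 0.99 to 1.75) and was called, where 45.1% of all probe sets tested were called without that array. Against non-transgenic lung it was 0.73 (95% interval -0.23 to 1.69), or 1.31 (95% interval 0.93 to 1.69) and called without tumor 2, where 46.8% were.

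**Figure D2:**
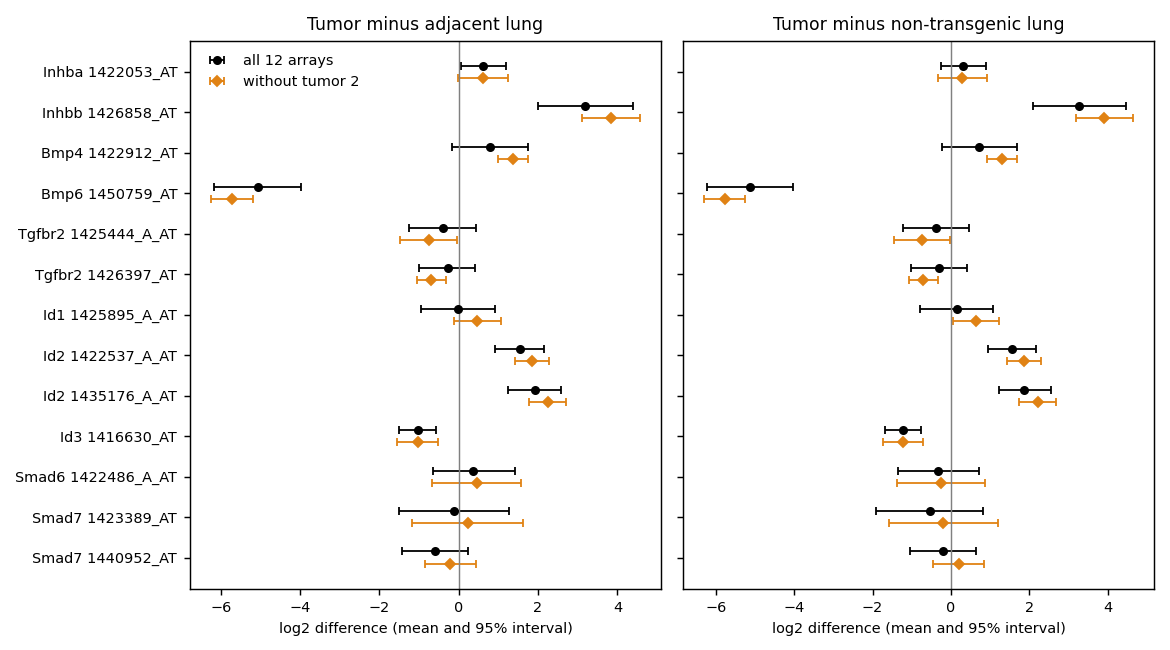
Log2 differences of the 13 probe sets between tumors and adjacent lung (left) and between tumors and non-transgenic lung (right), as the mean and 95% interval of the limma fit with all 12 arrays (black circles) and without tumor 2 (orange diamonds). In both panels intervals of Inhbb, Bmp6, both Id2 probe sets and Id3 lie clear of 0 with and without tumor 2, and those of Bmp4 and both Tgfbr2 probe sets only without it, while Inhba is clear of 0 on the left only with it and Id1 on the right only without it.

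Tgfbr2 encodes the type II TGF-beta receptor, which binds the ligand and then activates the type I receptor. The signal of Tgfbr2 1426397_AT was 10.38, 11.61, 9.89 and 9.75 in the tumors, 10.78, 10.75, 10.35 and 10.89 in adjacent lungs and 10.69, 10.75, 10.64 and 10.76 in non-transgenic lungs. Tumors 3 and 4 lay below all 8 lungs, tumor 1 lay above adjacent lung 3 and below the other 7 lungs, and tumor 2 lay above all 8. The non-transgenic lungs had an SD of 0.05 and the tumors an SD of 0.85. Tumors differed from adjacent lung by -0.28 (standard error 0.33, 95% interval -0.99 to 0.42), which was not called. From non-transgenic lung the tumors differed by -0.30 (95% interval -1.01 to 0.41), which was not called either. Without tumor 2 the difference from adjacent lung was -0.69 (95% interval -1.06 to -0.31) and was called, where 45.1% of all probe sets tested were. That from non-transgenic lung was then -0.70 (95% interval -1.07 to -0.33) and was called, where 46.8% were.

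Tgfbr2 1425444_A_AT gave the same arrangement of tumors 2, 3 and 4. Its signal was 6.04, 6.56, 4.71 and 4.72 in the tumors, 6.03, 5.99, 5.50 and 6.15 in adjacent lungs and 5.66, 5.46, 6.0 and 6.41 in non-transgenic lungs. Again tumor 2 lay above all 8 lungs and tumors 3 and 4 below all of them, while tumor 1 lay within their range. For this probe set the difference from adjacent lung was -0.41 (standard error 0.39, 95% interval -1.26 to 0.44), or -0.76 (95% interval -1.48 to -0.05) and not called without tumor 2. Among the settings run it was called against adjacent lung only when tumor 2 and adjacent lung 3 were both left out, where 47.8% of all probe sets tested were called. As the mean of both probe sets, Tgfbr2 differed from adjacent lung by -0.35 (standard error 0.34).

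The Id genes differed from lung in unlike ways. Id2 was higher in tumors on both of its probe sets. The signal of Id2 1422537_A_AT was 10.58, 9.0, 10.34 and 9.77 in the tumors, 8.08, 8.46, 8.52 and 8.45 in adjacent lungs and 8.66, 8.13, 8.33 and 8.33 in non-transgenic lungs. The signal of Id2 1435176_A_AT was 10.02, 8.85, 10.36 and 10.15 in the tumors, 7.82, 8.03, 7.41 and 8.48 in adjacent lungs and 8.15, 7.92, 7.90 and 7.87 in non-transgenic lungs. On both probe sets every tumor lay above every lung and tumor 2 was the lowest tumor, 0.34 and 0.36 above the highest lung. The differences from adjacent lung were 1.54 (standard error 0.28, 95% interval 0.92 to 2.16), or 2.91-fold, and 1.91 (standard error 0.31, 95% interval 1.24 to 2.58), or 3.76-fold. Those from non-transgenic lung were 1.56 (95% interval 0.94 to 2.18) and 1.88 (95% interval 1.22 to 2.55). Without tumor 2 they were 1.85 and 2.24 from adjacent lung. As the mean of both probe sets, Id2 differed from each kind of lung by 1.72 (standard error 0.27).

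Id3 was lower in tumors. Its signal was 8.81, 8.34, 7.62 and 8.68 in the tumors, 9.48, 9.51, 9.31 and 9.31 in adjacent lungs and 9.54, 9.58, 9.46 and 9.75 in non-transgenic lungs. The 8 lungs lay within 0.44 of each other and every tumor lay below all of them, with tumor 3 the lowest and tumor 2 between the others. The difference from adjacent lung was -1.04 (standard error 0.22, 95% interval -1.51 to -0.57), or 2.06-fold lower, and that from non-transgenic lung was -1.22 (standard error 0.22, 95% interval -1.69 to -0.75). Without tumor 2 they were -1.03 and -1.21, nearly as with it.

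Id1 varied widely among the tumors and was not called against either kind of lung. Its signal was 10.30, 7.79, 9.02 and 9.91 in the tumors, 9.66, 9.40, 8.98 and 9.06 in adjacent lungs and 8.96, 9.22, 8.97 and 9.31 in non-transgenic lungs. Tumors 1 and 4 lay above all 8 lungs, tumor 3 lay within their range and tumor 2 lay below all of them by 1.16. The SD was 1.12 in tumors, against 0.32 in adjacent and 0.18 in non-transgenic lung. From adjacent lung the tumors differed by -0.02 (standard error 0.42, 95% interval -0.94 to 0.91), or by 0.47 (95% interval -0.12 to 1.06) without tumor 2. From non-transgenic lung they differed by 0.15 (95% interval -0.78 to 1.07), or by 0.63 (95% interval 0.05 to 1.22) and not called without tumor 2. With all arrays, differences of nearly 1 unit in either direction stay within the interval. Tumor 2 lay over 1 unit below the other 11 arrays in 0.0888% of 45037 probe sets, and Id1 was the 1 member among them.

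The inhibitory Smad genes showed no called difference between tumors and lung with all 12 arrays, and adjacent lung 3 read far below the other lungs on Smad6 and on 1 of the Smad7 probe sets. The signal of Smad6, whose product mainly blocks BMP receptors, was 9.19, 8.90, 9.16 and 9.28 in the tumors, 9.49, 9.39, 6.80 and 9.36 in adjacent lungs and 9.45, 9.62, 9.40 and 9.38 in non-transgenic lungs. Apart from adjacent lung 3, the arrays lay within 0.72 of each other, and every tumor lay slightly below the other 7 lungs. Smad6 differed from adjacent lung by 0.37 (standard error 0.48, 95% interval -0.66 to 1.41) with all arrays and -0.28 (standard error 0.13, 95% interval -0.55 to 0.00) without adjacent lung 3, so that its direction turned on that array. Against non-transgenic lung it was -0.33 (standard error 0.48) with all arrays, and -0.33 (standard error 0.12) and called without adjacent lung 3, where 35.6% of all probe sets tested were, since the fit takes its spread from all 3 groups.

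Smad7, whose product blocks TGF-beta, activin and BMP receptors, was read differently by its probe sets on adjacent lung 3. The signal of Smad7 1423389_AT was 7.29, 6.13, 7.15 and 8.10 in the tumors, 8.22, 7.85, 4.98 and 8.09 in adjacent lungs and 7.48, 7.80, 7.47 and 8.09 in non-transgenic lungs. The signal of Smad7 1440952_AT was 6.78, 5.09, 5.81 and 7.32 in the tumors, 7.01, 6.87, 6.57 and 6.96 in adjacent lungs and 6.31, 6.79, 6.15 and 6.52 in non-transgenic lungs. Relative to the non-transgenic mean, the probe sets differed by 2.85 on adjacent lung 3 and by at most 0.76 on any other array, so that the low reading there was not shared. On both probe sets the order among tumors was the same, with tumor 4 the highest, then tumors 1 and 3, and tumor 2 the lowest, on Smad7 1440952_AT 1.06 below the lowest lung. The differences from adjacent lung were -0.12 (95% interval -1.50 to 1.26) for Smad7 1423389_AT and -0.60 (95% interval -1.44 to 0.23) for Smad7 1440952_AT, and without adjacent lung 3 they were -0.89 (95% interval -1.69 to -0.09) and -0.70 (95% interval -1.63 to 0.24), neither of them called. Without tumor 2 they were 0.23 (95% interval -1.17 to 1.62) and -0.21 (95% interval -0.86 to 0.43), so that the direction for Smad7 1423389_AT turned on that array. From non-transgenic lung the tumors differed by -0.54 (95% interval -1.92 to 0.83) for Smad7 1423389_AT and by -0.19 (95% interval -1.03 to 0.64) for Smad7 1440952_AT. Without tumor 2 these became -0.20 (95% interval -1.59 to 1.20) and 0.20 (95% interval -0.45 to 0.84), the latter with its direction turned, and none was called. Adjacent lung 3 lay over 1 unit below the other 11 arrays in 1.85% of 45037 probe sets, among them Smad6 and Smad7 1423389_AT.

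**Figure D3:**
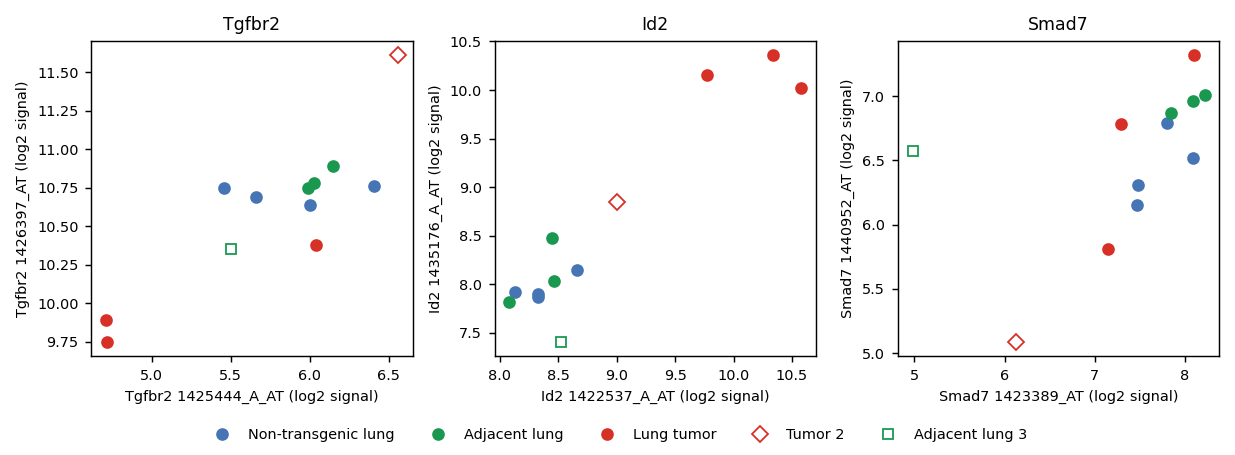
Log2 signal of the first probe set (horizontal axis) against the second (vertical axis) for Tgfbr2, Id2 and Smad7, 1 point per array, with tumor 2 as an open diamond and adjacent lung 3 as an open square. Both Id2 probe sets separate the 4 tumors from the 8 lungs, both Tgfbr2 probe sets place tumor 2 highest, and adjacent lung 3 is at 4.98 on Smad7 1423389_AT but at 6.57 on Smad7 1440952_AT.

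Adjacent normal and non-transgenic lung overlapped in all 13 members, where 4.78% of all probe sets tested did not. Adjacent lung both carried the transgene and lay beside a tumor, so that this comparison cannot tell the transgene alone from the nearby tumor. No member was called, and of all 23538 probe sets tested in limma 0% were. At an unadjusted p under 0.05, limma gave 0 members, beside 3.55% of all probe sets tested. The differences were between -0.70 for Smad6 and 0.41 for Smad7 1440952_AT, and the median absolute difference was 0.08, beside 0.14 over all probe sets tested. Without adjacent lung 3 the difference for Smad6 was -0.05 (95% interval -0.33 to 0.23) and that for Smad7 1423389_AT turned from -0.42 to 0.34 (95% interval -0.46 to 1.14). The intervals for Inhbb (-1.11 to 1.27) and Bmp6 (-1.15 to 1.04) still allow differences of about 1 unit, so that equal levels were not shown.

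Of the tumors, tumor 2 most often lay at an end of the range. It was the highest or the lowest of the 4 tumors in 11 of 13 members, all but Inhba and Id3, and in 75.1% of all probe sets tested. In Inhbb, Bmp6 and both Id2 probe sets it lay between the lungs and the other tumors, while in Bmp4, Id1 and Smad7 1440952_AT it lay below all 8 lungs and in both Tgfbr2 probe sets above them. Taken by the numbers of the labels, the tumor exceeded the adjacent lung of its number in 4 of 4 pairs for Inhba, Inhbb and both Id2 probe sets. It lay below that lung in 4 of 4 for Bmp6 and Id3. These are the 6 members in which tumors and adjacent lungs did not overlap, as in 23.5% of all probe sets tested. Any pairing would give the same counts, which therefore say nothing about pairs. For Inhbb the 4 differences were 4.39, 1.19, 3.95 and 3.25.

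**Figure D4:**
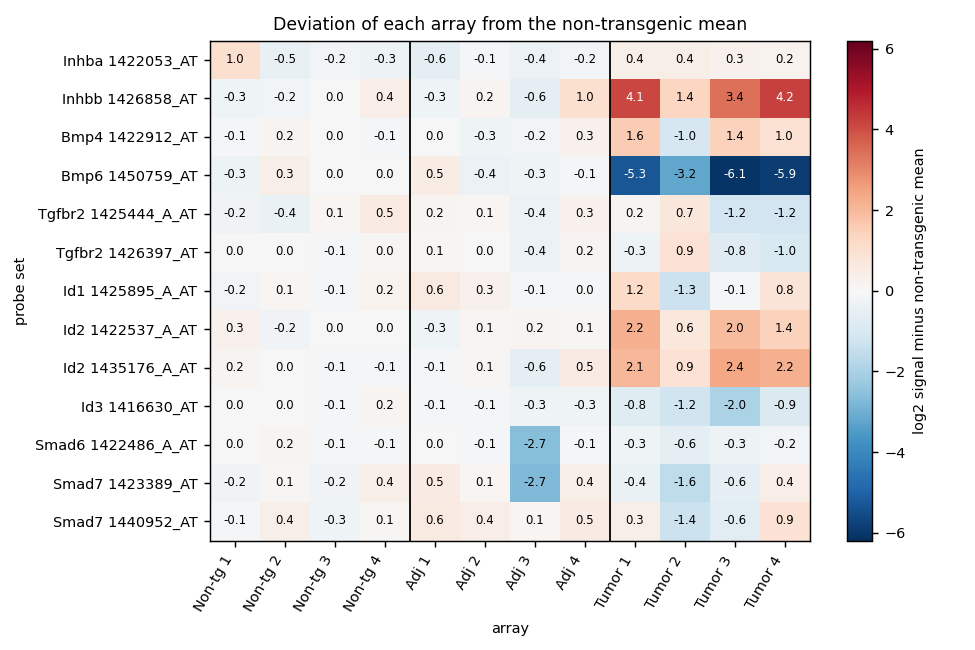
Log2 signal minus the mean of the 4 non-transgenic lungs (color and printed value) for the 13 probe sets (rows) in each of the 12 arrays (columns), with lines between the groups. The lungs lie within 1 unit of 0 apart from adjacent lung 3 in Smad6 and Smad7 1423389_AT. The furthest of the rest are 0.99 for Inhba in non-transgenic lung 1 and 0.98 for Inhbb in adjacent lung 4. The tumors range from -6.1 for Bmp6 in tumor 3 to 4.23 for Inhbb in tumor 4.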

How the data were processed

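Total RNA of 12 lung samples (3 groups of 4) was hybridized by the authors, as biotin-labelled cRNA, to Affymetrix GeneChip mouse genome arrays. The authors deposited log2 signals, 1 per probe set and array, from 1.50 to 14.51, background corrected and normalized between arrays. Robust Multichip Average is named in the methods and GCRMA, with no version, in the submitters' processing notes, and which of them made the values is unknown. The table has no detection calls and no depth, and the number of arrays limits the precision.

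Groups and replicate numbers came from the sample titles. Members and lists were chosen with earlier results of these data known. Probe sets above the table median (4.18) in at least 4 arrays, 52.3% of those other than the 64 controls, were fitted with limma 3.58.1 in R 4.3.3 (lmFit and eBayes, 3 groups, no block). Promoters are from RefSeq (GRCm38.p6). The motif GTCT was chosen once the data had been seen. The fit was tested on simulated data, and the alternatives are listed in the closing section.

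All 13 members were named. Other genes of the pathway, the cell type markers and the genes most like the members were listed too, but no table pairing other probe sets with genes was used here, and they were not analysed. As a check of pairing, residuals from the group means of a tumor and the adjacent lung with its number had correlations of -0.03, 0.10, 0.07 and 0.11.
Nothing says whether samples of a group came from separate litters, so that intervals measure the spread between these samples.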

Additional observations from a re-analysis of the deposited data

Results flagged for a closer look

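In 3 of the 39 sets of 4 arrays formed by the 13 members and the 3 groups, the gap between 1 array and the rest passed Dixon's critical value, which about 1 in 20 sets would pass by chance. Smad6 read 6.80 on adjacent lung 3, where the other adjacent lungs read 9.36 to 9.49. Smad7 1423389_AT was 4.98 in the same array and 7.85 to 8.22 in the others, while Smad7 1440952_AT was 6.57 there. Id2 1422537_A_AT read 8.08 on adjacent lung 1, where the others read 8.45 to 8.52, and the tumors 9.0 to 10.58. None of the sets of tumors was among the 3.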

How the results depend on the processing

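The 5 members called in tumor against adjacent lung and in tumor against non-transgenic lung were called in the same direction under every limma setting run. These were no filter, a stricter filter at the 75th percentile (6.47, which tested 11 of the members), quantile normalization again, median centring, floors at the 25th percentile (2.81) and, added after the data were seen, at the median, each array left out, tumor 2 and adjacent lung 3 left out together, an intensity trend with a robust fit, only the 8 arrays compared, the replicate block over 12 or 8 arrays (5 members called each time) and the mouse as a random block. With 1 array left out, 5 to 7 members were called in either comparison and across the 3 groups, the most without tumor 2, which added Bmp4 and Tgfbr2 1426397_AT. Without that array the share of all probe sets called also rose, from 28.7% to 45.1% against adjacent lung, from 32.5% to 46.8% against non-transgenic lung and from 28.6% to 44.2% across the groups, and without tumor 3 it was 19.1%, 22.8% and 17.7%. Without tumor 2 and adjacent lung 3 together, 8 were called against adjacent lung, beside 47.8% of all probe sets. The methods' t-test with unequal variances, which the study applied to other experiments, called 0 members after adjustment in both comparisons, beside 2.51% and 6.33% of all probe sets, and 6 in each at its threshold, beside 28.3% and 34.4%. Analysis of variance, as named in the methods for arrays, gave 5 members at its threshold and 5 after adjustment, beside 39.7% and 24.4% of all probe sets. With the mean of the probe sets of a gene, 4 of 10 genes were called in both comparisons, beside 28.7% and 32.5%. No called difference changed its sign. Same-numbered arrays deviated together too little to show a pairing, and only 1 tumor of 4 had its highest correlation with the adjacent lung sharing its number. The alternatives for other genes of the pathway were not run.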
